A study of Mus musculus with 2 samples.

Results

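The 38 genes described here take part in DNA replication (18 genes) or in mitosis (20 genes). They were chosen by symbol, and all 38 were found among the 32245 gene symbols counted in single cells of the mouse adrenal gland. Glands came from female C57BL/6J mice of genotype SF1-Cre+;Znrf3Fx/Fx at 6 weeks (2 adrenals, 1 library) and at 9 weeks (3 adrenals, 1 library). Cre recombinase under the SF1 promoter acts in steroid-producing cells, and there it deletes Znrf3, a membrane ubiquitin ligase that limits Wnt signalling. Both ages carry the deletion, adrenals were pooled within a library, and no control without the deletion was analysed here. The submitters place 6 weeks in the hyperplastic stage and 9 weeks at the start of regression. The question addressed is which cells of the gland express replication and mitosis genes at each stage. With 1 library per age there are no replicates, so no test was run: 95% intervals (exact Poisson for levels, exact Clopper-Pearson for shares) cover counting error only, and age cannot be told apart from library.

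A dividing cell first copies its DNA in S phase and then separates the copies in mitosis. The replicative helicase is loaded onto DNA in G1 and started in S phase. Mcm2, Mcm3, Mcm4, Mcm5, Mcm6 and Mcm7 encode the subunits of the ring that unwinds DNA, Cdc6 loads it, and Cdc45 and Gins2 activate it. Pcna is the sliding clamp of the polymerases. Rrm1 and Rrm2 (ribonucleotide reductase), Tyms (thymidylate synthase) and Dut (dUTPase) supply nucleotides, and Ung cuts uracil out of DNA. Slbp binds histone mRNA, Hells is a chromatin remodeller, and Uhrf1 guides the copying of DNA methylation. Mitosis is driven by the kinase Cdk1 with cyclins Ccna2, Ccnb1 and Ccnb2 and the small Cdk partner Cks2. Plk1, Aurka, Aurkb and Bub1 are mitotic kinases, Birc5 is the partner of Aurkb on chromosomes, and Tpx2 activates Aurka. Nusap1 and the motors Kif11 and Cenpe work on spindle microtubules, with Cenpf at kinetochores. Cdc20 and Ube2c serve the ubiquitin ligase that ends mitosis, Top2a untangles DNA, Mki67 coats mitotic chromosomes, and Hmgb2 is a DNA-bending chromatin protein that many non-dividing cells also express.

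Replication and mitosis genes are known to be switched on by different promoter elements, so promoters of members that the age differences turn on are shown. RefSeq promoters (GRCm38.p6, the patch release of mm10) matched 33 of the 38 members by symbol; Mcm4, Gins2, Ccna2, Tpx2 and Aurkb were not matched. Windows of 300 bases, 250 before and 50 after the start, were searched on both strands for CCAAT, for the cell cycle homology region words TTTGAA and TTTAAA, and for the E2F words TTTCCCGC, TTTGGCGC, TTTCGCGC and TTTGCCGC. Each sequence below runs 5′ to 3′ on the gene's strand from 180 bases before the start to 20 after it, with matched words on either strand in capitals. Mcm6 had the largest age ratio in cortical cells, Rrm2 in dendritic cells and Top2a in granulocytes, and Cdk1 and Plk1 were among the mitosis genes that differed most in T/NK cells. These 5 were chosen after the values were seen.
Mcm6 (chr1:128359686-128359885, minus strand): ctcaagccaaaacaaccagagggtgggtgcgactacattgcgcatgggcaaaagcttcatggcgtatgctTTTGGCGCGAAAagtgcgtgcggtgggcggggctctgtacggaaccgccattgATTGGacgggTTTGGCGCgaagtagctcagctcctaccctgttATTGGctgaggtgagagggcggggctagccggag
Rrm2 (chr12:24708074-24708273, plus strand): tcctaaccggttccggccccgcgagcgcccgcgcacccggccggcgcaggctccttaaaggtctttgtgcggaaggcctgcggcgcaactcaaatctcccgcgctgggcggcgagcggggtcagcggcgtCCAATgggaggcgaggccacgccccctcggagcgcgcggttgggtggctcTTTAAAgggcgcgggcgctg
Cdk1 (chr10:69352893-69353092, minus strand): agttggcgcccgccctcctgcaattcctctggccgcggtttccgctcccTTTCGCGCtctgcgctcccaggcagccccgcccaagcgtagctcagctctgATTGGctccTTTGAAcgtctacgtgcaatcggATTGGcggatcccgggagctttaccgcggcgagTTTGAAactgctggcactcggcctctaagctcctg
Top2a (chr11:99024170-99024369, minus strand): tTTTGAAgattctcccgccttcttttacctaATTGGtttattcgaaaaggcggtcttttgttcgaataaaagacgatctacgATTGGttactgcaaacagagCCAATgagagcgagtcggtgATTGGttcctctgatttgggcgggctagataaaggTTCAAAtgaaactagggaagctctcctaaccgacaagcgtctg
Plk1 (chr7:122159255-122159454, plus strand): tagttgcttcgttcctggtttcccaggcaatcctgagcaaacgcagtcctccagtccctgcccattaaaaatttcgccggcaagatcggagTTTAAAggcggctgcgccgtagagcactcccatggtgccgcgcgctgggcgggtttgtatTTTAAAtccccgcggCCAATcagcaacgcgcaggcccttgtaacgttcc

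Over the whole windows, both TTTGAA or TTTAAA and CCAAT were more frequent in mitosis members. A cell cycle homology word was present in 14 of 17 mitosis members (82.4%), in 4 of 16 replication members (25%) and in 27.8% of 27025 genes with a window. CCAAT was present in 15 of 17 mitosis members (88.2%), 11 of 16 replication members (68.8%) and 37.9% of all genes. At least 2 CCAAT words were present in 70.6% of mitosis members, 50% of replication members and 12.2% of all genes. An E2F word was present in 6 of 16 replication members (37.5%), in 1 mitosis member, Cdk1 (5.88%), and in 2.32% of all genes. CCAAT together with a cell cycle homology word was found in 13 of 17 mitosis members (76.5%), 4 of 16 replication members (25%) and 10.9% of all genes. Rrm2 is among these 4 replication members. In 1 member, Mcm7, words of 2 kinds overlap. A match says only that these letters occur in the window.

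After filtering, 8119 cells at 6 weeks and 9932 at 9 weeks remained, with medians of 11347 and 7028.5 UMIs (unique molecular identifiers, each marking 1 captured transcript). The libraries shared 29 barcodes. Cells were clustered without cell cycle genes, with the aim that dividing cells group with their own cell type. This did not hold throughout, as 20 cells almost without cortical markers sat in cortical clusters (described below). From marker genes, 28 of 35 clusters were named. Of the fixed markers, 9 of 10 adrenocortical, 12 of 13 dendritic, 11 of 11 macrophage, 21 of 22 T/NK and 16 of 16 granulocyte markers stood over 3-fold higher in the class of that name than in all other cells. The classes were named with these same markers, so the counts do not test the names. The exceptions were Scarb1 in cortical cells (2.59-fold), Fscn1 in dendritic cells (0.217-fold) and Rora in T/NK cells (0.565-fold). Fscn1 and Rora were thus lower there than in all other cells. Cortical cells made up 53.3% of cells at 6 weeks and 21.4% at 9 weeks, and macrophages 11.8% and 22.7%. Dendritic cells made up 3.47% and 11.2%, T/NK cells 5.00% and 11.1%, and granulocytes 2.22% and 7.87%. These shares also depend on the sort, which followed red cell lysis and took cells that stained with the DNA dye Vybrant DyeCycle Ruby and kept DAPI out. The part of the sort in the cell cycle values was not tested.

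A cell was counted as mitosis-positive when it held at least 2 UMIs over 18 mitosis members after being thinned to 2000 UMIs. Cks2 and Hmgb2 were left out because non-dividing cells also express them. At both ages dendritic cells were often mitosis-positive and cortical cells seldom. Granulocytes were mitosis-positive at 9 weeks only in this sample of cells, but few 6-week granulocytes were deep enough to be counted. In cortical cells the share was 19 of 4274 cells (0.445%, 0.268 to 0.693) at 6 weeks and 22 of 2086 (1.05%, 0.662 to 1.59) at 9 weeks, with intervals that overlap. In dendritic cells it was 44 of 278 (15.8%, 11.7 to 20.7) and 212 of 1096 (19.3%, 17.0 to 21.8). Macrophages had 41 of 889 (4.61%, 3.33 to 6.20) and 140 of 2153 (6.5%, 5.50 to 7.63). In both of these myeloid classes the 9-week share was the higher and the intervals overlapped. T/NK cells went the other way, with 31 of 351 (8.83%, 6.08 to 12.3) at 6 weeks and 66 of 1025 (6.44%, 5.01 to 8.12) at 9 weeks, also with overlapping intervals. Granulocytes had 0 of 37 at 6 weeks and 74 of 538 (13.8%, 11 to 17.0) at 9 weeks. The 0 of 37 allows a share of up to 8.11% when 3 counts are taken as the limit, and its exact upper limit is 9.49%. When cell cycle genes were kept in the clustering, the cortical shares were 0.0706% and 0.242%. A cluster of 28 and 37 cells with Cenpf, Pbk and Prc1 among its leading genes was then left unnamed. Its markers scored highest for erythroid and next for cortical cells, so any cortical cells in it were not counted.

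Thinning left out 143 of 180 granulocytes at 6 weeks and 244 of 782 at 9 weeks. Thinned to 1000 UMIs, 0 of 173 6-week granulocytes (exact upper limit 2.11%) and 65 of 774 9-week granulocytes (8.40%, 6.54 to 10.6) were mitosis-positive, so the intervals were apart at that depth. At full depth the shares at 6 and 9 weeks were 2.29% and 6.53% in cortical cells, 31.6% and 40.5% in dendritic cells and 7.93% and 12.5% in macrophages. They were 9.85% and 9.69% in T/NK cells and 0% and 10.5% in granulocytes. B cells, at median depths of 2357 and 2848 UMIs, are given for comparison. None of 108 (exact upper limit 3.36%) and none of 302 (exact upper limit 1.21%) thinned B cells was mitosis-positive. Endothelial cells had 1 of 803 (0.125%) and 10 of 1134 (0.882%, 0.424 to 1.62), so the 9-week cortical share lies within the endothelial interval.

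**Figure D1:**
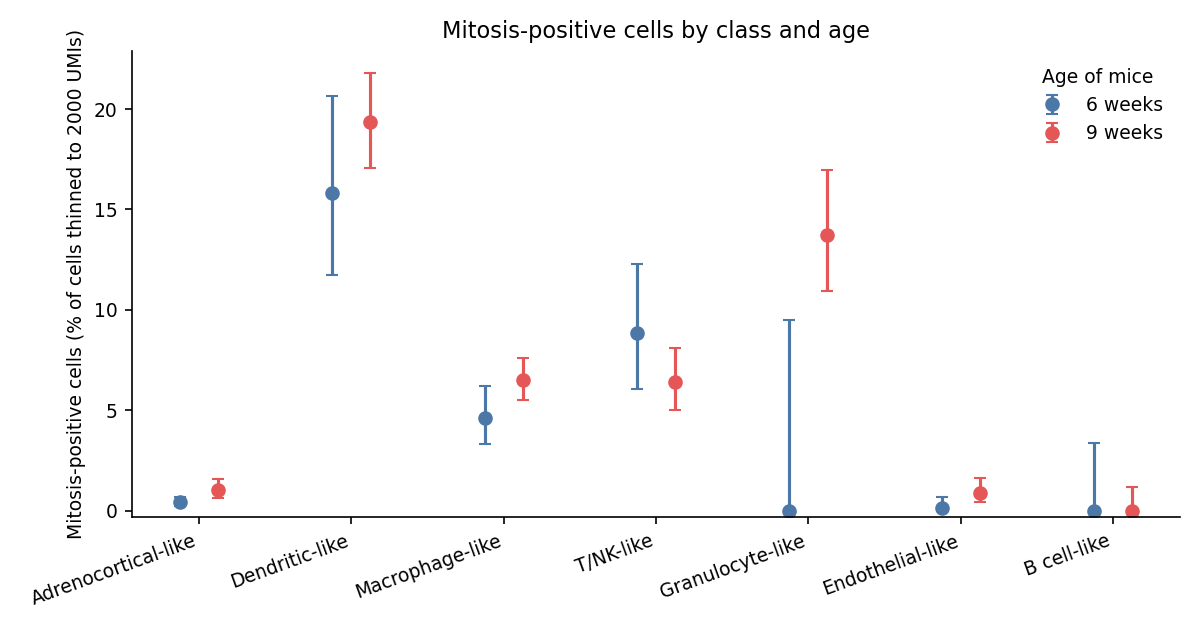
Share of cells with at least 2 UMIs over 18 mitosis genes after thinning to 2000 UMIs (y axis, % of cells), by cell class (x axis) and age (colour). Points are shares of 1 library per age and bars are exact 95% binomial intervals: dendritic-like cells reach 15.8% and 19.3%, granulocyte-like cells 0% and 13.8%, and cortical-like cells 0.445% and 1.05%.

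Cells of other classes could be mixed into mitosis-positive cells, so marker levels were compared. In cortical cells the summed level of 10 cortical markers had a median of 9365 CPM (UMIs of a gene scaled to all UMIs of those cells) in mitosis-positive cells and 25869 CPM in the others at 6 weeks, and of 8569 and 18509 CPM at 9 weeks. In T/NK cells at 9 weeks, 11 macrophage markers summed to 2705 CPM in mitosis-positive cells and 591 CPM in the others, and 16 granulocyte markers to 2003 and 435 CPM. The medians per cell were 148 and 222 CPM for macrophage markers and 119 and 264 CPM for granulocyte markers, so few cells held the excess. At 6 weeks, 10 cortical markers summed to 2797 CPM in mitosis-positive T/NK cells and 357 CPM in the others, with medians per cell of 259 and 297 CPM. In 6-week macrophages they summed to 2031 and 635 CPM, with medians of 252 and 308 CPM. Macrophage markers at 9 weeks summed to 2019 and 802 CPM in granulocytes, 1406 and 747 in dendritic cells and 994 and 367 in cortical cells. Their medians per cell were 108 and 248, 279 and 274, and 288 and 188 CPM. At 6 weeks these sums went the other way in dendritic cells (340 and 957 CPM) and cortical cells (308 and 321 CPM). The part of these markers in T/NK, macrophage, dendritic and cortical values was tested only by leaving cells out. No such share is given for granulocytes. With cells that carry another class's markers left out, T/NK shares were 7.92% and 5.71%, macrophage shares 4.50% and 6.49%, dendritic shares 15.8% and 19.1%, and cortical shares 0.427% and 0.988%. Dendritic markers were not used for this in macrophages and granulocytes, which share some of these genes, so dendritic cells mixed into them were not checked. Of the 74 mitosis-positive 9-week granulocytes 17 carried another class's markers. A further 20 cells sat in cortical clusters but were almost without cortical markers, and 12 of the 15 that were deep enough were mitosis-positive. They were set aside after the data were seen. With them kept, the cortical shares were 0.468% and 1.57%.

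The phase mix of positive cells differed between some of the classes. A cell was counted as replication-positive with at least 2 UMIs over 16 replication members, leaving out Slbp and Dut, which non-dividing cells also express. Cortical positive cells carried mostly replication UMIs alone, dendritic cells were spread over all 3 phase classes, and 9-week granulocytes nearly always carried mitosis UMIs. In cortical cells 261 cells (6.11%, 5.41 to 6.87) were positive for either list at 6 weeks: 242 for replication only, 9 for both and 10 for mitosis only. At 9 weeks 240 cells (11.5%, 10.2 to 13) were positive: 218, 11 and 11 in the same order. Replication-only cells thus made up 92.7% and 90.8% of positive cortical cells. In dendritic cells 75 cells (27.0%, 21.9 to 32.6) were positive at 6 weeks, divided into 31, 16 and 28. At 9 weeks 351 cells (32.0%, 29.3 to 34.9) were positive, divided into 139, 110 and 102. The share with replication UMIs alone was 41.3% and 39.6%.

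In macrophages 152 cells (17.1%, 14.7 to 19.7) were positive at 6 weeks, with 111, 24 and 17 in the replication-only, both and mitosis-only classes. At 9 weeks 396 (18.4%, 16.8 to 20.1) were positive, with 256, 78 and 62. Replication-only cells made up 73.0% (65.2 to 79.9) and 64.6% (59.7 to 69.4), so macrophages stood between cortical and dendritic cells. In T/NK cells 84 cells (23.9%, 19.6 to 28.7) were positive at 6 weeks, with 53, 26 and 5 in these classes. At 9 weeks 219 (21.4%, 18.9 to 24.0) were positive, with 153, 46 and 20. Mitosis-only cells were thus the smallest class in T/NK cells at both ages. Replication-only cells made up 63.1% (51.9 to 73.4) and 69.9% (63.3 to 75.9) of positive T/NK cells, with intervals that overlap those of macrophages. In 9-week granulocytes 77 cells (14.3%, 11.5 to 17.6) were positive, and 3 were positive for replication only, 37 for both and 37 for mitosis only.

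**Figure D2:**
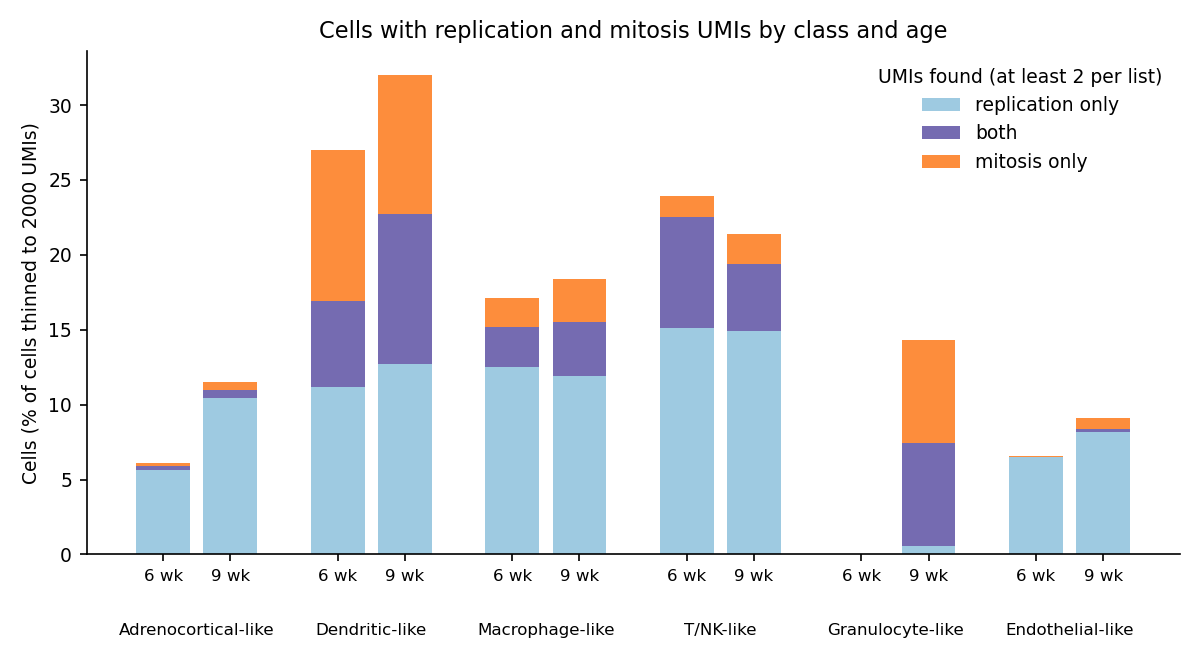
Share of cells (y axis, % of cells thinned to 2000 UMIs) with at least 2 UMIs of the replication list only, of both lists, or of the mitosis list only (stacked colours), by class and age (x axis, 1 library each). Cortical-like and endothelial-like bars are nearly all replication only, while 3 of 77 positive 9-week granulocyte-like cells fall there.

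Replication UMIs without mitosis UMIs were also found in classes with few mitosis-positive cells. The replication criterion was met by 6.48% and 8.27% of endothelial cells and by 9.26% and 7.62% of B cells that were not mitosis-positive, at 6 and 9 weeks. Among cortical cells that were not mitosis-positive it was met by 5.69% (5.01 to 6.43) and 10.6% (9.27 to 12), among dendritic cells by 13.2% and 15.7%, among macrophages by 13.1% and 12.7%, and among T/NK cells by 16.6% and 16%. The 6-week cortical share is thus no higher than the endothelial one, and replication UMIs alone were not read as division. Among 9-week granulocytes that were not mitosis-positive it was met by 0.647% (0.134 to 1.88). Cells that met the replication criterion alone were thus rare among granulocytes, whose median depth was 5374 UMIs in these cells.

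Among mitosis-positive cells alone, the share that also held replication UMIs was 47.4% (24.4 to 71.1) and 50% (28.2 to 71.8) in cortical cells at 6 and 9 weeks. It was 36.4% (22.4 to 52.2) and 51.9% (44.9 to 58.8) in dendritic cells and 58.5% and 55.7% in macrophages. T/NK cells had the highest shares, 83.9% (66.3 to 94.5) and 69.7% (57.1 to 80.4), and 9-week granulocytes had 50% (38.1 to 61.9). The T/NK interval at 6 weeks lies above the dendritic, and the intervals of the other classes overlap with each other. Over summed UMIs the order of classes was another. The 16 replication members without Slbp and Dut took 82.6% and 78% of the UMIs that they and the 18 mitosis members without Cks2 and Hmgb2 held in cortical cells, 53.7% and 45.5% in macrophages, and 39.0% and 47.6% in T/NK cells. They took 34.2% and 33.9% in dendritic cells and 23.7% in 9-week granulocytes.

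Members differed in how far their UMIs lay in cells with UMIs of mitosis genes. For each gene, the share of its UMIs found in cells with at least 3 UMIs of the other mitosis members was computed at full depth over both libraries. Such cells made up between 5.5% and 5.92% of all cells, depending on the gene left out. Of the mitosis members, 18 had between 80.4% (Cdk1) and 98.4% (Bub1) of their UMIs there, and Hmgb2 (68.0%) and Cks2 (61.9%) had less. Replication members ranged from 25.7% (Slbp) to 96.4% (Rrm2). Rrm2, the regulated subunit of ribonucleotide reductase, and Uhrf1 (85.6%) lay within the range of the mitosis members, followed by Cdc6 (74.4%) and Cdc45 (69.7%). Rrm1, the partner subunit of Rrm2, had 43.2%. Mcm2 (28.8%), Pcna (31.7%) and Dut (32.2%) were mostly counted in cells without such mitosis UMIs. This measure favours mitosis members and leaves out S phase cells without mitosis UMIs. With at least 3 UMIs over the other members of both lists (Slbp, Dut, Cks2 and Hmgb2 not counted), the shares were higher. They were 75.9% for Mcm2, 55.2% for Pcna, 70.5% for Dut and 64.2% for Slbp. Such cells made up 33.4%, 24.7%, 35.1% and 35.1% of all cells in that order. Shares by either measure also rise with the depth of mitosis-positive cells, which held more UMIs than others of their class. Their medians were 22600 against 5374 in 9-week granulocytes and 22056 against 13988 in 9-week dendritic cells.

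The same split was steepest in the cortex. There, cells with at least 3 other mitosis UMIs made up 1.60% of cells, and they held 85.8% of Rrm2, 83.2% of Uhrf1, 7.31% of Mcm2 and 9.34% of Pcna UMIs. Of the cortical Cdk1 UMIs 52.2% lay in such cells, against 90.2% in dendritic cells, 75.1% in macrophages, 92.4% in T/NK cells and 99.2% in granulocytes. In granulocytes, where 8.32% of cells met this criterion, 35 members had between 81.6% (Mcm4) and 100% (Rrm2 among others) of their UMIs there. Slbp (68.7%), Cks2 (62.3%) and Hmgb2 (56.5%) had less.

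**Figure D3:**
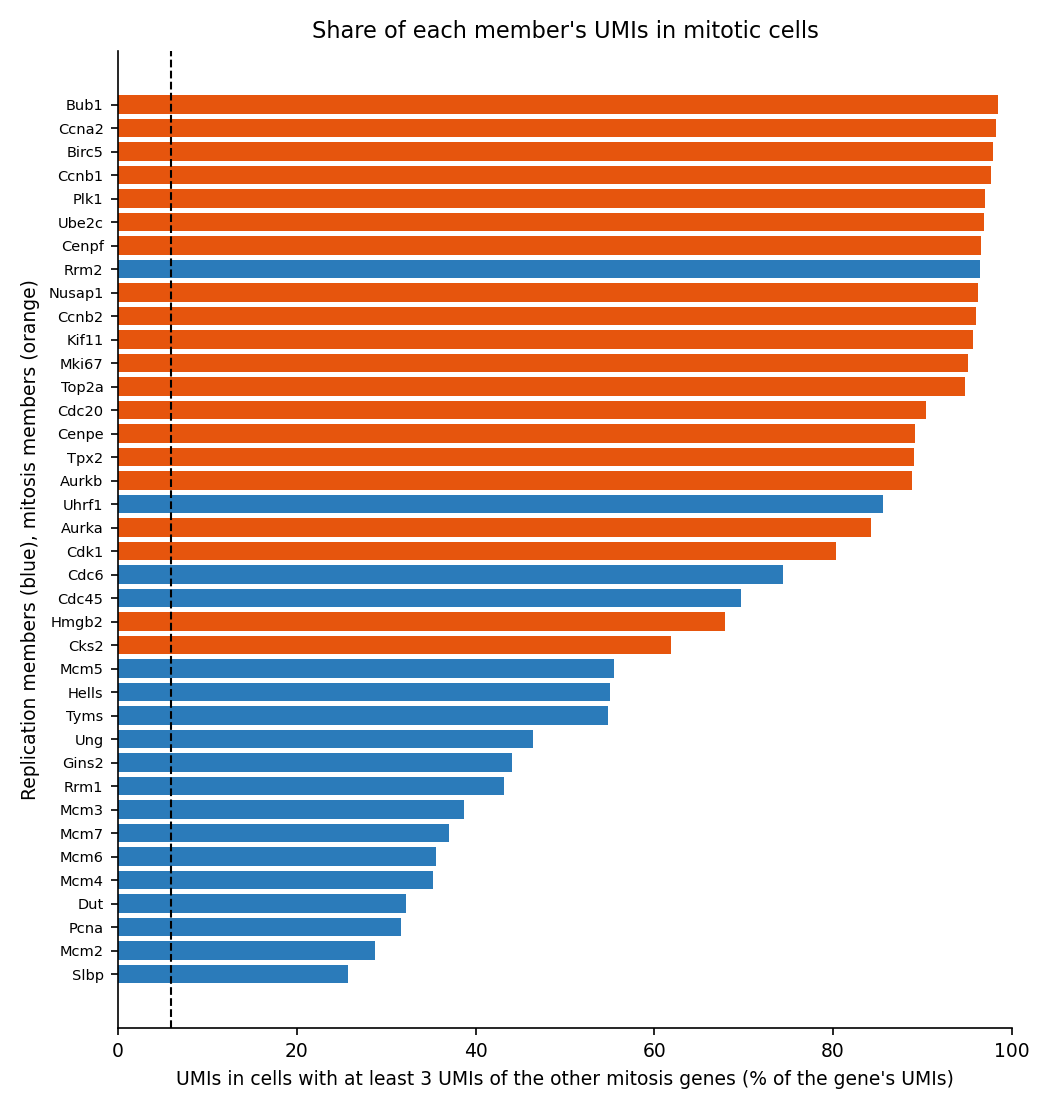
Share of each gene's UMIs (x axis, %) found in cells with at least 3 UMIs over the other mitosis genes, over all cells of both libraries, for replication genes (blue) and mitosis genes (orange) in order of that share (y axis). The dashed line is the share of cells that meet the criterion for replication genes, 5.92%; Rrm2 and Uhrf1 sit among the mitosis genes, while Slbp has 25.7%.

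Levels per class were taken from UMIs summed over the cells of each class and library. Sums over the 18 replication or 20 mitosis members include Slbp, Dut, Cks2 and Hmgb2, which non-dividing cells also express. Hmgb2 is a large part of the mitosis sums. They count molecules at their 3′ end and are not scaled by gene length, and a summed level does not separate more dividing cells from more RNA per dividing cell. At 6 weeks T/NK cells had the highest CPM of the 5 classes for 16 of 18 replication and 16 of 20 mitosis members. At 9 weeks T/NK cells were highest for 12 of 18 replication members, and granulocytes were highest for 17 of 20 mitosis members. Mki67 stood at 149 CPM (131 to 167) in T/NK cells at 6 weeks, 106 (95.3 to 117) in dendritic cells, 48.0 (42.7 to 53.8) in macrophages, 3.32 (0.0842 to 18.5) in granulocytes and 3.19 (2.78 to 3.65) in cortical cells. Only the intervals of granulocytes and cortical cells overlap. At 9 weeks Mki67 stood at 241 CPM (228 to 255) in granulocytes, 165 (159 to 171) in dendritic cells, 112 (104 to 122) in T/NK cells, 78.8 (74.6 to 83.1) in macrophages and 9.37 (8.34 to 10.5) in cortical cells. No neighbours in that order overlap. The order differed between replication genes. Rrm2 at 9 weeks was highest in granulocytes (84.7 CPM), ahead of T/NK cells (61.2) and dendritic cells (55.9). The helicase subunit Mcm5 at 9 weeks stood at 47.0 CPM (41.3 to 53.3) in T/NK cells and 45.6 (42.5 to 49.0) in dendritic cells, which do not differ beyond counting error. It stood at 30.2 (25.7 to 35.3) in granulocytes and 24.4 (22.1 to 26.9) in macrophages, which also overlap, and at 8.65 (7.66 to 9.73) in cortical cells.

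In cortical cells both lists were higher at 9 than at 6 weeks, from low levels. The 18 replication members summed to 318 CPM (314 to 323) at 6 weeks and 458 (451 to 465) at 9 weeks, and the 20 mitosis members to 90.8 (88.5 to 93.0) and 162 (158 to 167). Dut, Pcna and Slbp were the most abundant replication members, at 80.0, 65.5 and 51.6 CPM at 6 weeks and 93.6, 66.7 and 77.6 at 9 weeks. Hmgb2 led the mitosis members with 36.5 and 48.7 CPM, and the most abundant ones after Cks2 were Cenpf at 6 weeks (4.62 CPM) and Cdk1 at 9 weeks (10.4 CPM). Age ratios are log2 of the 9-week over the 6-week CPM with a pseudocount of 5 CPM, for genes with at least 10 CPM in 1 library and 10 UMIs in all. A gene under 10 CPM in the other library passed only through the age at which it was high, so its direction was fixed by this minimum. Of 11 replication members that passed, 5 were higher by 1.5-fold and none was lower. Of 3 mitosis members that passed (Cdk1, Cks2, Hmgb2), 2 were higher. Over all 8606 genes tested in cortical cells 7.75% were higher and 4.14% lower by that measure.

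The largest cortical ratio was that of the helicase subunit Mcm6, from 15.7 CPM (14.8 to 16.7) to 40.5 (38.3 to 42.8), a log2 ratio of 1.13. Cks2 went from 14.8 to 32.6 CPM (log2 0.92) and Mcm3 from 13 to 27.7 (log2 0.87). The chromatin remodeller Hells, from 3.68 to 10.9 CPM, and Cdk1, from 3.50 to 10.4, passed the minimum on their 9-week level alone. The smallest ratios were those of Pcna (65.5 to 66.7 CPM, log2 0.02), Dut and Rrm1 (both log2 0.21). Of the helicase subunits Mcm2, Mcm3, Mcm4 and Mcm6 were higher by 1.5-fold, Mcm7 (18.8 to 25.6 CPM) was not, and Mcm5 did not pass the minimum. The other 7 replication members stood between 0.382 (Cdc6) and 4.43 CPM (Gins2) at 6 weeks and between 1.10 (Cdc6) and 8.65 CPM (Mcm5) at 9 weeks. The other 17 mitosis members stood between 0.221 (Bub1) and 4.62 CPM (Cenpf) and between 0.972 (Bub1) and 9.37 CPM (Mki67).

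The cortical median log2 ratio was 0.55 over 11 replication and 0.86 over 3 mitosis members that passed, against 0.07 over all genes. The 0.86 is the ratio of Cdk1 itself, which with Hells passed through its 9-week level alone, so these medians are a description only. Over all 18 replication and 20 mitosis members, with no minimum, the medians were 0.51 and 0.32. Trimmed mean scaling divides the 9-week CPM before the pseudocount is added, by a log2 factor of 0.17 in cortical cells and -0.38 in granulocytes. With it Cdk1 and Hells fell below the minimum, and the cortical medians were 0.30 over 10 replication and 0.50 over 2 mitosis members. Different clusters held the cortical cells at the 2 ages: clusters led by fasciculata genes (Cyp11b1, Srd5a2) and by Cyp2f2 held 1636 and 1559 cells at 6 weeks but 655 and 105 at 9 weeks. Weighting clusters alike, in this and the other classes, used only clusters with at least 20 cells at both ages. The cortical medians were then 0.19 over 10 replication and 0.29 over 2 mitosis members. Mitosis-positive shares within clusters were 0.557% and 0.803% in the fasciculata cluster, 0.545% and 0.606% in the glomerulosa cluster (led by Vsnl1 and Hsd3b6), and 1.09% and 1.82% in a cluster led by Htra1 and Meg3. The cluster led by Cyp2f2 had 2 of 1558 and 0 of 105 such cells. Of 42 other replication genes 16 passed and 3 were higher, among them Atad2 (14.0 to 26.9 CPM) and Tipin (17.3 to 31.8). Of 51 other mitosis genes 6 passed: the condensin subunits Smc4 (45.2 to 79.1 CPM) and Smc2 (14.4 to 25.9) were higher, and Pttg1, the inhibitor of separase, was lower (70.1 to 12 CPM).

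In dendritic cells the lists were a little higher at 9 weeks. Replication members summed to 753 CPM (725 to 782) and 924 (910 to 939), and mitosis members to 2111 (2064 to 2159) and 2423 (2399 to 2446). Hmgb2 (918 and 978 CPM), Top2a (173 and 209) and Ube2c (147 and 182) led the mitosis list, and Dut (116 and 141), Pcna (110 and 126) and Slbp (75.8 and 102) the replication list. In each list 1 member was higher by 1.5-fold, of 17 replication and 20 mitosis members that passed, and none was lower. Over all 7334 genes tested in dendritic cells 1.15% were higher and 2.89% lower. The replication member was Rrm2, at 30.4 CPM (25 to 36.7) and 55.9 (52.4 to 59.6), a log2 ratio of 0.78. The mitosis member was Mki67, at 106 and 165 CPM, a log2 ratio of 0.62. Hells came next (30.9 to 45.5 CPM, log2 0.49). The smallest ratios were those of Ung (10.6 to 9.07 CPM, log2 -0.15), Gins2 (23.7 to 21.2, log2 -0.13) and Plk1 (22.9 to 22.5, log2 -0.02). Both medians were 0.23, against 0.04 over all genes.

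Within dendritic cells, mitosis-positive shares were higher in the type 1 cluster than in the type 2 cluster at both ages, as point values. The type 1 cluster (led by Xcr1 and Clec9a) had 37 of 198 (18.7%) at 6 weeks and 196 of 961 (20.4%) at 9 weeks. The type 2 cluster (Cd209a, Clec10a) had 7 of 65 (10.8%) and 15 of 105 (14.3%). The mature cluster (Ccr7, Ccl22) had 0 of 15 and 1 of 30, so counts there were too small to compare. Of the other genes of the pathways, 34 replication and 44 mitosis genes passed, and 2 of each were higher. These were Brip1 (5.30 to 13 CPM) and Clspn (13.9 to 25.5), which respond to damaged or stalled forks, Pbk (13.9 to 24.4), a mitotic kinase, and a mitosis gene just over the limit, Smc2 (62.7 to 96.6). Brip1 passed the minimum on its 9-week level alone.

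In macrophages the summed replication list did not differ beyond counting error, and part of the mitosis list was higher at 9 weeks. Replication members summed to 577 CPM (558 to 596) and 556 (545 to 568), and mitosis members to 709 (689 to 731) and 877 (863 to 891). Pcna (131 and 121 CPM), Slbp (65.3 and 67.0) and Mcm3 (56.9 and 49.1) led the replication list. Hmgb2 (262 and 296) and Top2a (65.6 and 96.3) led the mitosis list, followed by Birc5 at 6 weeks (53.3) and Mki67 at 9 weeks (78.8). None of 14 replication members that passed was higher or lower, and 2 of 18 mitosis members were higher. Over all 7879 genes tested in macrophages 1.37% were higher and 2.44% lower. The 2 were Mki67, at 48.0 CPM (42.7 to 53.8) and 78.8 (74.6 to 83.1), log2 0.66, and Plk1, at 5.67 (3.95 to 7.89) and 11.8 (10.2 to 13.6), log2 0.66. Plk1 passed the minimum on its 9-week level alone. Tpx2 came next (17.0 to 27.5 CPM, log2 0.56). Cdk1 had the smallest ratio (34.8 to 27.5 CPM, log2 -0.29), with Mcm2 (26.3 to 21.1, log2 -0.26) and Mcm3 (log2 -0.19).

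The macrophage medians were -0.02 over replication and 0.29 over mitosis members, against 0.03 over all genes. With clusters weighted alike the mitosis median was 0.03. The cluster led by complement genes (C1qa, C1qb) had 35 of 516 mitosis-positive cells (6.78%) and 135 of 2031 (6.65%). The resident cluster (led by Fcrls, Cbr2 and Pf4) had 5 of 296 (1.69%) and 4 of 53 (7.55%), and the lipid-associated cluster (Gpnmb, Lpl) 1 of 77 and 1 of 69. The resident cluster held 308 of 958 macrophages at 6 weeks and 54 at 9 weeks. Of the other genes, none of 29 replication genes was higher or lower, and 1 of 29 mitosis genes was higher, the spindle midzone protein Prc1 (25.3 to 40.6 CPM).

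In T/NK cells the summed mitosis list was lower at 9 weeks, and the summed replication list was lower by less. Mitosis-positive shares of thinned cells (8.83% and 6.44%) had intervals that overlap, and at full depth the shares were 9.85% and 9.69%. The intervals of the sums do not cover the spread between cells. Mitosis members summed to 3209 CPM (3127 to 3293) and 2071 (2032 to 2111), and replication members to 1328 (1275 to 1382) and 1098 (1069 to 1126). Hmgb2 (1579 and 1141 CPM), Top2a (256 and 138) and Ube2c at 6 weeks (181) or Mki67 at 9 weeks (112) led the mitosis list. Dut (233 and 165), Pcna (200 and 168) and Slbp (159 and 156) led the replication list. Of 20 mitosis members, which all passed, 14 were lower by 1.5-fold and none was higher. Of 18 replication members 1 was lower, Tyms (84.0 to 49.5 CPM, log2 -0.71). Over all 8031 genes tested in T/NK cells 2.89% were lower and 3.45% higher. The median log2 ratio was -0.80 over mitosis and -0.22 over replication members, against 0.05 over all genes.

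The lowest ratios were those of the spindle pole kinase Aurka, at 27.8 CPM (20.6 to 36.7) and 9.18 (6.77 to 12.2), log2 -1.21, and of Plk1, at 30.6 (23.1 to 39.8) and 10.5 (7.92 to 13.7), log2 -1.20. Cks2 followed, at 168 and 75.1 CPM (log2 -1.11), and Cdk1, at 92.4 and 41.3 CPM (log2 -1.07). The 6 mitosis members within 1.5-fold were Mki67, Ccnb1, Ccnb2, Cdc20, Kif11 and Hmgb2, all lower at 9 weeks, by between 0.26 (Cdc20) and 0.47 (Hmgb2) on the log2 scale. The largest ratios were in replication members: Ung (11.7 to 14.0 CPM, log2 0.18), Cdc45 (10.0 to 11.3, log2 0.12) and Mcm4 (61.8 to 65.2, log2 0.07). The counts behind some of these are small: Aurka had 50 and 48 UMIs and Plk1 55 and 55. Aurka and Bub1 passed the minimum on their 6-week level alone.

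Among T/NK clusters, those of T cells with Cxcr6 or Cd8a held most mitosis-positive cells. In the cluster led by Cxcr6 and Trac, 22 of 134 cells (16.4%) were mitosis-positive at 6 weeks and 30 of 336 (8.93%) at 9 weeks. In the CD8 cluster (Cd8a, Gzmk) there were 6 of 34 (17.6%) and 21 of 136 (15.4%). The cluster led by Il7r and Lef1 had 0 of 54 and 3 of 203, the NK cluster led by Gzma 0 of 34 and 4 of 209, and the NK cluster led by Xcl1 3 of 85 (3.53%) and 8 of 131 (6.11%). With clusters weighted alike the mitosis median was -0.65 with 11 members lower, and the replication median -0.07. Of the other genes of the pathways, 23 of 45 mitosis genes and 5 of 38 replication genes were lower. Kif2c (19.5 to 6.12 CPM), a kinesin that takes microtubules apart, and Sgo1 (22.8 to 8.60), the protector of centromere cohesion, had the lowest mitosis ratios, and Tk1 (49.5 to 24.9), thymidine kinase, the lowest replication ratio. Kif2c and Sgo1 passed the minimum on their 6-week level alone, so their direction was fixed by it. None of these other genes of the pathways was higher.

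**Figure D4:**
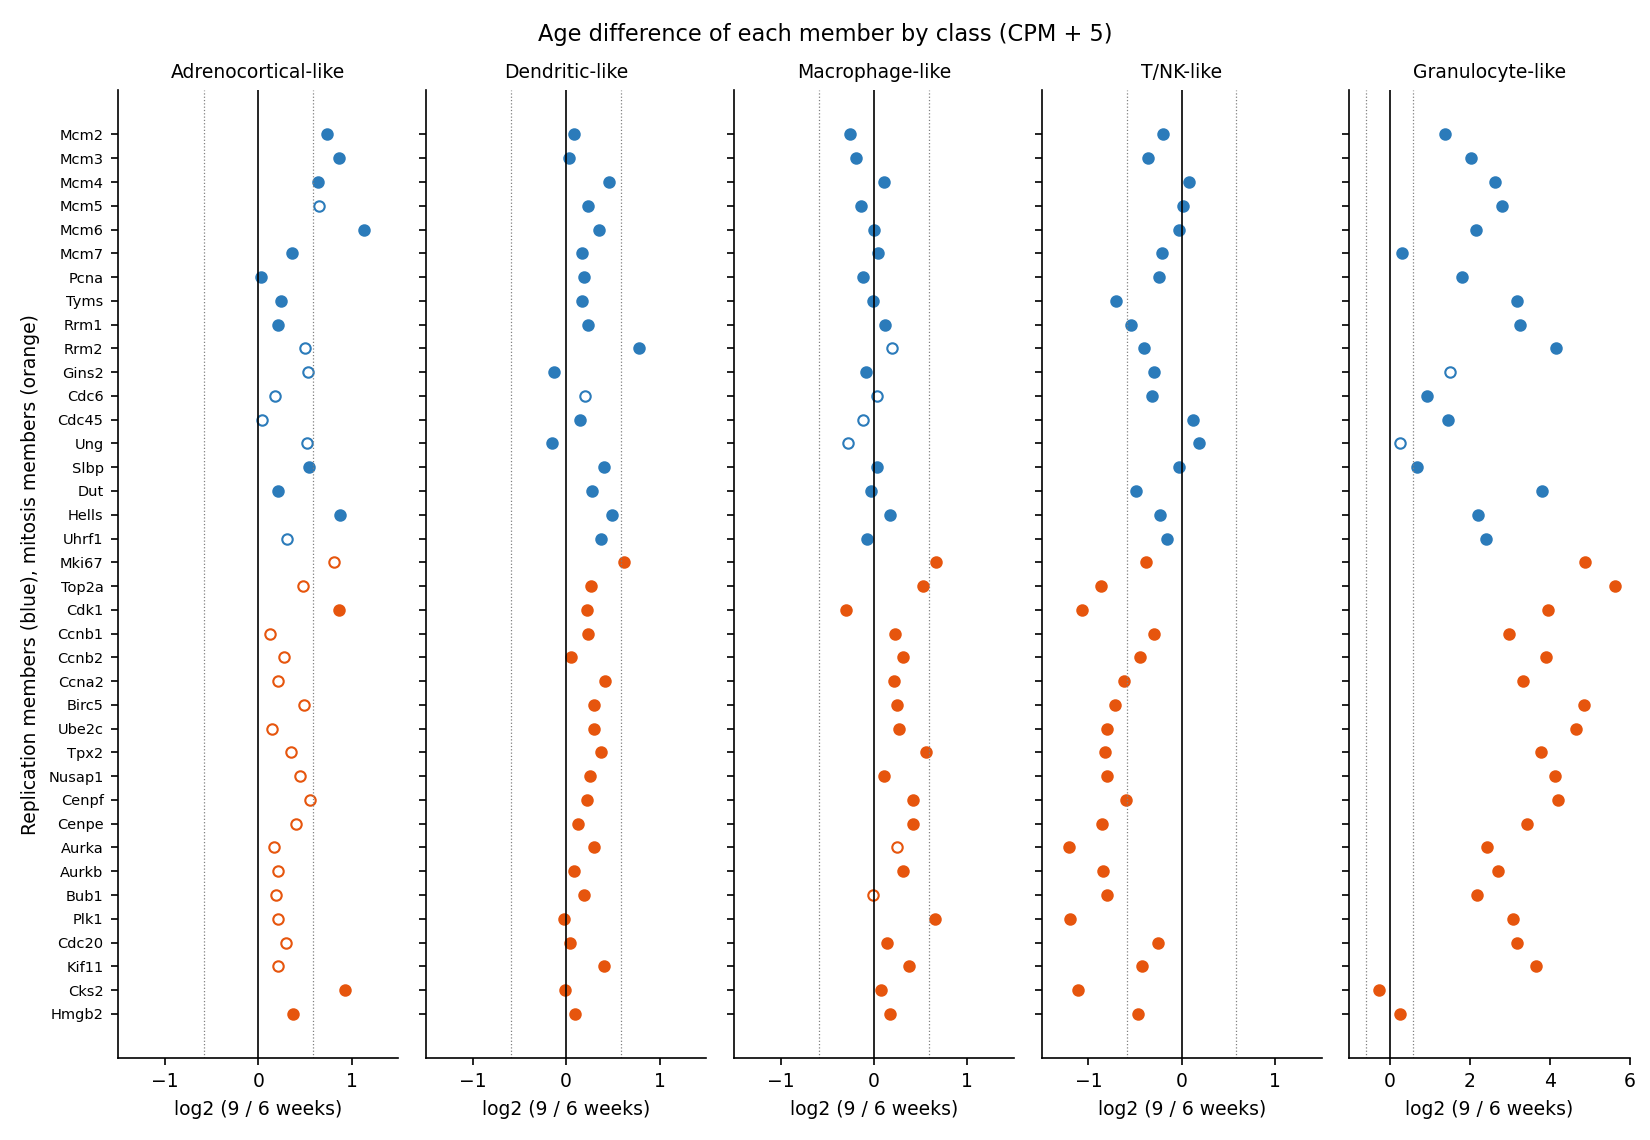
Log2 ratio of the 9-week over the 6-week level (x axis, CPM with a pseudocount of 5) for each member (y axis; replication blue, mitosis orange) in 5 classes. Filled points passed the minimum level, open points did not, and dotted lines mark 1.5-fold; mitosis genes lie left of 0 in T/NK-like cells and far right in granulocyte-like cells, whose axis has another range.

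Granulocytes showed the largest contrast. At 6 weeks 180 cells with 300808 UMIs in all held no UMI of 26 of the 38 members (10 replication, 16 mitosis). At 9 weeks 782 cells with 5228810 UMIs held UMIs of all 38. A subset of 11 mitosis members (Ccnb1, Ccnb2, Cdc20, Plk1, Aurka, Cenpe, Cenpf, Ube2c, Birc5, Tpx2, Bub1) summed to 3.32 CPM (0.0842 to 18.5) and 767 CPM (744 to 792). Top2a went from 0 UMIs to 244 CPM (231 to 258), which is 24.5-fold a floor of 3 UMIs (9.97 CPM) in the 6-week library. The exact upper limit for 0 UMIs there is higher, at 12.3 CPM, so folds over the floor are not strict bounds. Birc5 went from 0 UMIs to 139 CPM (129 to 149), 13.9-fold the same floor. Mki67 had 1 UMI at 6 weeks (3.32 CPM, 0.0842 to 18.5) and 241 CPM (228 to 255) at 9 weeks. Rrm2, with 0 UMIs and 84.7 CPM, had the highest fold over that floor among replication members with 0 UMIs, 8.50-fold.

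Of 16 replication members that passed, 15 were higher and none lower, and of 20 mitosis members 18 were higher and none lower. All of the higher ones except Pcna and Slbp were under 10 CPM at 6 weeks and passed on their 9-week level alone, so the counts and medians describe the members only. Over all 6740 genes tested in granulocytes 27.3% were higher and 32.9% lower, more than in any other class described. The median log2 ratio was 2.19 over replication and 3.55 over mitosis members, against -0.14 over all genes. These depend on the pseudocount, and with members at 0 UMIs set to the floor of 3 UMIs they were 2.06 and 2.42. Hmgb2 (2390 CPM, 2219 to 2572, and 2848 CPM, 2803 to 2894) and Cks2 (279 and 230) were the most abundant mitosis members at 6 weeks and were the 2 that did not differ by 1.5-fold. Cks2 had the smallest ratio (log2 -0.27), then Hmgb2 (log2 0.25) and Mcm7 (19.9 to 25.8 CPM, log2 0.30). Slbp led the replication list at 6 weeks (49.9 CPM) and Rrm2 (84.7), Slbp (83.2) and Pcna (71.0) at 9 weeks. Of the other genes 29 of 32 replication and 39 of 43 mitosis genes were higher, and of these only Usp1, Cdca7, Cenpa and Smc4 (named after their values were seen) had 10 CPM at 6 weeks. Cdca8 (0 to 96.8 CPM), a partner of Aurkb, Prc1 (0 to 66.7) and the DNA methyltransferase Dnmt1 (0 to 50.7) had the largest ratios, while Kif23 (130 to 62.0) and Hjurp (63.2 to 39.4) were lower.

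The granulocytes of the libraries fell into different clusters. A cluster led by Ngp, Camp and Ltf, granule genes of immature neutrophils, held 1 cell at 6 weeks and 356 at 9 weeks, and all 74 mitosis-positive granulocytes were in it. The cluster led by Cxcr2 and Il1b had 0 of 36 and 0 of 187. Weighting clusters alike needed at least 20 cells at both ages, so the cluster led by Ngp, Camp and Ltf was left out. The cluster led by Cxcr2 and Il1b was then compared alone. In it 2 members of each list passed, with medians of -0.12 (replication) and 0.049 (mitosis). Age and the presence of immature cells cannot be told apart here. A second clustering of granulocytes without cycle genes, made after the data were seen, gave 9 sub-clusters. Sub-cluster 6, led by Prtn3, Fcnb and Ms4a3 with the azurophil granule gene Elane at 1634 CPM, held 72 cells, all from 9 weeks. Of these 58 (80.6%, 69.5 to 88.9) were mitosis-positive, with 34 also positive for replication and 24 not, and 3 more were positive for replication only.

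The lists differed in how far they were found along the sub-clusters of granulocytes. In sub-cluster 6 the 16 replication members summed to 1249 CPM and the 18 mitosis members to 3745 CPM. In sub-cluster 4, led by Camp, Ltf and Ngp with no Elane UMI, the sums were 32.6 and 282 CPM, and 5 of 91 cells (5.49%, 1.81 to 12.4) were mitosis-positive, none of them for replication as well. There Rrm2 had 1 UMI and Dut 0, while Ube2c stood at 81.0 CPM (63.4 to 102) and Birc5 at 40.5 (28.4 to 56.1). In sub-cluster 3, where Mmp8 and Cd177 joined Ltf, the sums were 19.1 and 34.0 CPM and 1 of 111 cells was mitosis-positive. In sub-clusters 0, 1, 2, 5 and 7, which hold all 6-week granulocytes, none was. Sub-cluster 8 carried the class II genes Cd74 and H2-Eb1 beside Camp (24074 CPM), and 10 of its 35 cells (28.6%, 14.6 to 46.3) were mitosis-positive. Of 9-week granulocytes 40 carried another class's markers, and 17 of these were mitosis-positive. Hmgb2 stood at 4412 CPM in sub-cluster 6, 2127 in sub-cluster 4, 1745 in sub-cluster 3 and 2323 in the mature sub-cluster 0, so its level varied less than the sum of the 18 mitosis members. Cks2, the other member outside that sum, stood at 394 CPM in sub-cluster 6, 70.9 in sub-cluster 4, 63.7 in sub-cluster 3 and 268 in sub-cluster 0.

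**Figure D5:**
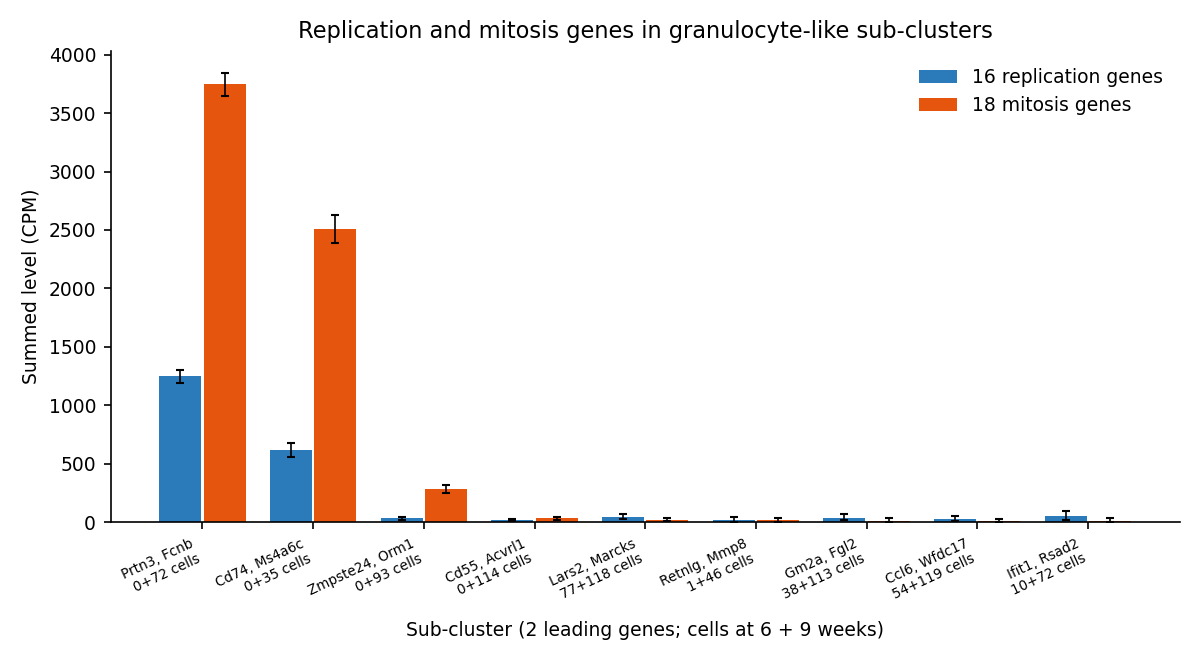
Summed level (y axis, CPM) of 16 replication genes and 18 mitosis genes in 9 sub-clusters of granulocyte-like cells, each named by its 2 leading genes with its cell numbers at 6 and 9 weeks (x axis). Bars are sums over both libraries and error bars exact 95% Poisson intervals; the Prtn3 and Fcnb sub-cluster has 1249 and 3745 CPM, and sub-clusters with 6-week cells are near 0.

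Over all cells of the libraries, 1.99% of thinned cells were mitosis-positive at 6 weeks and 6.47% at 9 weeks, a ratio of 3.25. With the class mix of the 6-week library given to both ages the ratio was 1.56, and with that of the 9-week library 1.52. For positivity on either list the shares were 9.32% and 16.9%, a ratio of 1.81, which became 1.46 and 1.28 with the same mixes. Positive cells were 39.6% cortical and 11.4% dendritic at 6 weeks, and 15.8% cortical and 23.1% dendritic at 9 weeks. Macrophages supplied 23.1% and 26.1% of them, T/NK cells 12.7% and 14.4%, and granulocytes none and 5.07%.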

How the data were processed

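Adrenal cells were measured by droplet single-cell RNA sequencing with the Chromium 3′ v3.1 chemistry. The deposited values are raw counts of UMIs per gene and barcode, made with Cell Ranger 6.0.1 on mm10, with Seurat also named, per the submitters' processing notes; no source used here gives the annotation release. The matrices held 8880 and 10812 barcodes. Barcodes with under 500 genes, over 25% mitochondrial UMIs or a doublet call by Scrublet (scanpy 1.11.5; 489 and 595 cells) were removed. Both libraries were clustered together without 314 cell cycle genes (leidenalg 0.10.2). Cell classes were rebuilt from marker genes, and 7 clusters stayed unnamed, so class sizes can differ from the study's own. Cells under 10% of their class's median for its own markers were set to unnamed.

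For each class and age, UMIs were added over cells and divided by the class total to give CPM. Members were taken for the age difference as the 3 largest and 3 smallest ratios and for level as the 3 highest of each list. The members and lists were chosen with earlier results of these data known. The naming thresholds, the low-marker step, mitosis-positivity, the mitosis-based concentration, the granulocyte sub-clusters and the printed promoters were chosen after seeing the data. Code was tested on simulated data. The settings varied were doublet and gene filters, clustering genes, thinning depth, UMI minimum, member lists, pseudocount, scaling and cluster weights. Python 3.11.15 was used with scipy 1.17.1, numpy 2.4.6 and pandas 2.3.3.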

Additional observations from a re-analysis of the deposited data

Results flagged for a closer look

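The age difference of the mitosis members ran in opposite directions in different classes. In T/NK-like cells the median log2 ratio of 9 over 6 weeks was -0.80 over 20 members, all of them below 0, while it was 0.86 over the 3 members that passed the minimum in adrenocortical-like cells, all above 0. The 0.86 is the ratio of Cdk1 (3.50 to 10.4 CPM), which passed through its 9-week level alone, beside 0.92 for Cks2 and 0.37 for Hmgb2. Over all 20 members with no minimum the cortical median was 0.32. In granulocyte-like cells it was 3.55 over 20 members, of which 19 were above 0 and Cks2 was below, against the same -0.80 in T/NK-like cells. The 18 granulocyte members that were higher by 1.5-fold all passed on their 9-week level alone. With 1 library per age the difference between classes was not tested.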

How the results depend on the processing

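In all, 42 results were recomputed under 17 settings. Of 488 values 405 stayed within the spread allowed, 81 moved further and 2 changed direction. No paired analysis was possible because each age has 1 library. The mitosis-positive share ratio of 9 over 6 weeks ranged from 1.67 to 3.43 in cortical cells, 1.08 to 1.28 in dendritic cells, 1.12 to 1.58 in macrophages and 0.61 to 0.98 in T/NK cells. The 3.43 comes from clustering with cell cycle genes, where the cortical shares themselves were 0.0706% and 0.242%. In that clustering a cluster with Cenpf and Pbk among its leading genes (28 and 37 cells) was unnamed. The T/NK mitosis median ranged from -0.99 to -0.65. No value left its allowed spread when cells low in their class's markers were kept, when cells with another class's markers were left out, with another thinning draw, or with clusters 21 and 33 counted as dendritic.

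Most of the values that moved were of measures that use replication UMIs. Without thinning the ratio of positive cells over all cells changed direction (0.96), the same ratio was 1.17 with the 6-week class mix and 1.14 in cortical cells, and the mitosis-positive ratio was 2.02 with the 6-week mix. The replication-only share of positive cells was then 96.6% in cortical cells at 6 weeks, 81.5% and 73.7% in macrophages and 18.8% in 9-week granulocytes. Thinned to 5000 UMIs, the ratios were 1.42 over all cells, 1.29 with the 6-week mix and 1.44 in cortical cells. The replication-only shares were then 95.9% and 94.3% in cortical cells, 71.5% in 9-week macrophages, and 31.9% and 55.4% in T/NK cells. Thinned to 1000 UMIs the ratio over all cells was 2.20.

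With at least 3 UMIs, the ratio over all cells was 2.50 and the replication-only shares were 73.3% and 75% in cortical cells, 33.5% in 9-week dendritic cells, 59.5% and 55.6% in macrophages, and 50% and 51.4% in T/NK cells. With all 38 members counted, the ratios were 1.24 and 1.12 with the 6-week and 9-week mixes, 1.37 in cortical cells and, for mitosis-positive cells, 1.14 with the 9-week mix. The replication-only shares were then 27.9% in 9-week dendritic cells, 60.9% and 51.7% in macrophages, 37.2% and 38.6% in T/NK cells and 0.211% in 9-week granulocytes. Without Pcna the ratio over all cells was 2.09, and the shares were 84.1% and 83.9% in cortical cells, 57.3% in 9-week macrophages, and 49.2% and 60.9% in T/NK cells.

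Medians of log2 ratios moved in cortical cells and granulocytes. With cell cycle genes in the clustering the cortical medians were 0.42 (replication) and 0.53 (mitosis), and the replication-only shares 98.8% and 97.7%. With a minimum of 1000 genes per cell they were 0.32 and 0.43, without a glomerulosa-led cluster (635 and 726 cells) that was then unnamed. The granulocyte medians were 2.99 and 3.78, against 1 cell at 6 weeks, since the cluster led by Il1b and Cxcr2 (20 and 96 cells) was then unnamed. Trimmed mean scaling gave 0.30 and 0.50, and 3.90 for mitosis in granulocytes. Without doublet removal the cortical replication median was 0.34, and without the filter on low genes the cortical mitosis median was 0.32. A pseudocount of 1 CPM gave 1.09 for cortical mitosis members and 3.60 and 5.62 in granulocytes. Clusters weighted alike, limited to those with at least 20 cells at both ages, gave 0.19 and 0.29 in cortical cells. In granulocytes this left only the cluster led by Cxcr2 and Il1b, without the cluster that held all mitosis-positive granulocytes. There the medians were -0.12 for replication, a change of direction over 2 members in a smaller set of cells, and 0.049 for mitosis. The low depth of 6-week granulocytes, at a median of 1552 UMIs, limits what can be seen in them.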

Other observations

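Smaller classes also held mitosis UMIs. Of thinned monocytes, 0 of 138 were mitosis-positive at 6 weeks and 12 of 274 (4.38%) at 9 weeks. Plasma cells had 2 of 25 and 3 of 18, and the mast cell cluster led by Mcpt4 and Cma1 had 1 of 6 and 4 of 17. An unnamed cluster led by the type 1 dendritic genes Xcr1 and Clec9a, in which markers of another class were also high, held 3 cells at 6 weeks and 74 at 9 weeks, and 17 of the 74 (23%) were mitosis-positive.

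The 20 cells in cortical clusters that were almost without cortical markers (6 at 6 weeks, 14 at 9 weeks) differed by age in genes of red cell precursors. A list of such genes summed to 42856 CPM in the 14 cells at 9 weeks and 131 CPM in the cortical cells kept, but to 23.6 and 48.8 CPM at 6 weeks. Of the 20 cells 9 held a UMI of Hbb-bs, a beta globin. Over all 20 it stood at 21184 CPM, against 11.9 CPM in the cortical cells kept, and the erythroid factor Klf1 at 209 and 0.460 CPM. Mki67 stood at 413 and 5.16 CPM and Top2a at 491 and 5.54 CPM in the same order. At 9 weeks 11 of the 12 that were deep enough were mitosis-positive.

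Pttg1, the inhibitor of separase, was lower at 9 weeks in cortical cells, where no mitosis member that passed was lower, at 70.1 CPM (68.1 to 72.1) and 12 CPM (10.8 to 13.3), and in endothelial cells, at 113 (102 to 125) and 12.7 (9.53 to 16.6). It was lower in T/NK cells, as most mitosis members were, at 90.7 (77.3 to 106) and 54.1 (48.0 to 60.8). It was 47.4 (40.5 to 55.1) and 56.9 (53.4 to 60.6) in dendritic cells, 42.1 and 34.3 in macrophages and 76.5 and 60.1 in granulocytes, each within 1.5-fold.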
